A study of Mus musculus with 3 samples.

Results

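The genes described here are the ligands and receptors of the 4 classical axon guidance systems. They were chosen by symbol alone: every gene annotated as a semaphorin, plexin of types A to D, neuropilin, ephrin, Eph receptor, Slit, Robo or netrin, which gave 64 of the 32285 genes counted. The set holds 20 semaphorins, 9 plexins, 2 neuropilins, 8 ephrins, 14 Eph receptors, 3 Slits, 4 Robos and 4 netrins. Single-cell RNA was read from palatal shelves, the outgrowths of the upper jaw that fuse into the roof of the mouth. The cells were those of wild-type C57BL/6J mouse embryos without mutation or treatment, in 3 libraries, 1 for each of the embryonic days E13.5, E14.5 and E15.5. Unless a stage is named, series of 3 values run from the youngest to the oldest stage. Each library pooled the shelves of 3 embryos, dissociated with an enzyme and fixed in methanol, so there were no replicates of a stage.

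These systems steer growing axons, and they also act outside the nervous system, in vessels, neural crest and epithelia. Semaphorins bind plexins, with neuropilins as co-receptors for most of the secreted class 3 semaphorins. Ephrins are bound to the membrane and signal to Eph receptors on neighbouring cells, with ephrin-A ligands mainly binding EphA receptors and ephrin-B ligands mainly EphB receptors, and signals run in both directions. Slits are secreted and bind Robo receptors, and netrins are secreted and bind Dcc, neogenin and Unc5 receptors.

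A group of 7 of these genes was called higher in endothelial-like cells than in mesenchymal-like cells, as described further on. The promoters of 3 of them, Robo4, Plxnd1 and Efna1, are shown because these genes had the largest log2 fold changes of that group. Each runs 5′ to 3′ on the strand of its gene, from 250 bases before to 50 bases after the start that RefSeq gives on GRCm38.p6. Capitals mark the letters CAGGAA or their reverse complement TTCCTG, a form of the GGAA core that ETS transcription factors, regulators of many endothelial genes, can bind. The Robo4 window is chr9:37401722-37402021 on the plus strand, the Plxnd1 window is chr6:115994956-115995255 on the minus strand, and the Efna1 window is chr3:89280902-89281201 on the minus strand.
Robo4: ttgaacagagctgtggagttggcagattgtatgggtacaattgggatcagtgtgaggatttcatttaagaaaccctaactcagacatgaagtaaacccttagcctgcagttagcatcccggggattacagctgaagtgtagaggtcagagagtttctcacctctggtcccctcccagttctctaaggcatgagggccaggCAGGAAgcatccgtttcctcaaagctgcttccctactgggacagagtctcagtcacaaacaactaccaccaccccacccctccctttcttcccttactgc
Plxnd1: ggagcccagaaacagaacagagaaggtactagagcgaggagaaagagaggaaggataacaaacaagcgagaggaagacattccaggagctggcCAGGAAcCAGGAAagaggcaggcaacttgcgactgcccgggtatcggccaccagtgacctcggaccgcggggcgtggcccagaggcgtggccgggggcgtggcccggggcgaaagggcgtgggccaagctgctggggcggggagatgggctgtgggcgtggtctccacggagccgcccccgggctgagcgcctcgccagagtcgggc
Efna1: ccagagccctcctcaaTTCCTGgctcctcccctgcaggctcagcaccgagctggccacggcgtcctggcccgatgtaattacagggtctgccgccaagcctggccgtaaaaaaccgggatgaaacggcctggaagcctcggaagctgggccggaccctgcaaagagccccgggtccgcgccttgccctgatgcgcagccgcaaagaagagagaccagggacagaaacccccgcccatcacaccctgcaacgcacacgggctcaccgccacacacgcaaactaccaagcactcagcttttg
The letters occurred 1 time in the Robo4 window, 2 times in the Plxnd1 window, 1 time in the Efna1 window and 1 time in that of Nrp2. They did not occur in the windows of Sema6d, Efnb2 and Ephb1. Of all 32817 promoters in the table, 30.6% held them on either strand. The letters CCGGAA, or TTCCGG on the other strand, occurred in 14.9% of all promoters and in none of the 7 windows. A match of this kind describes the letters only and does not show a binding site.

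The libraries held 4236, 2079 and 3113 barcodes with 11472663, 5293977 and 8313677 UMIs (unique molecular identifiers, each standing for 1 captured RNA molecule). After filters, 3583, 1750 and 2584 cells were left. At most 3 barcodes were shared between any pair of libraries. A cell was placed in a class when at least 3 markers of that class had a UMI and the markers of other classes were few. The names end in -like since they rest on RNA alone, and none of the 64 genes is a marker. The gate took 427, 1124 and 1713 mesenchymal-like cells. Epithelial-like cells numbered 46, 73 and 185 and endothelial-like cells 6, 43 and 50. Glial-like cells numbered 13, 21 and 43 and olfactory-like cells 1, 13 and 18. Neural-like cells numbered 1688 at E13.5 but 75 and 102 later, and 39.1%, 22.9% and 18.3% of the cells took no class. A mesenchymal-like cluster that held 58.3% of the mesenchymal-like cells at E13.5 held 7.38% and 7.12% at the later stages, so mesenchymal cells of unlike makeup are compared with E13.5. The endothelial-like cells had UMIs of all 10 endothelial markers at E14.5 and E15.5 and lacked Plvap at E13.5. The single olfactory-like cell of E13.5 had 9 of 12 olfactory markers at 0. For comparison, 3 fibrillar collagens that could not exclude a cell stood in the epithelial-like, endothelial-like and olfactory-like cells at 0% to 8.80% of their mesenchymal level. The 10 mesenchymal markers stood at 2.13%, 3.21% and 3.91% in epithelial-like cells, at 10.99%, 10.2% and 8.37% in endothelial-like cells and at 0%, 3.14% and 1.53% in olfactory-like cells. Apart from the 3 collagens, mesenchymal markers could exclude a cell, so the gate partly sets their shares. The same holds further on for other markers that could exclude a cell. A gene at or under such shares of its mesenchymal level is not told apart here from free RNA.

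Levels are given in CPM, UMIs of a gene divided by all UMIs of the class in that library and scaled as for sequencing counts (1 UMI of 1000000 is 1 CPM), with exact Poisson 95% intervals that cover counting error only. In mesenchymal-like cells 1 UMI stood for 0.844, 0.358 and 0.205 CPM. The small classes were much shallower, with 1 UMI at 88.8, 8.15 and 5.43 CPM in endothelial-like cells. At a count of 0, 3 UMIs were allowed, a one-sided limit that lies inside the upper end of the two-sided interval. UMIs were not divided by transcript length, so a gene is compared with itself between classes and stages, and the order of genes within a family is only that of their UMIs.

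Palatal mesenchyme carried RNA of both sides of most of the systems. Averaged over the 3 libraries, 17 of the 64 genes stood at 100 CPM or above in mesenchymal-like cells, 28 between 10 and 100, 13 between 1 and 10, and 6 under 1. The 20 semaphorins summed to 1438 CPM (interval 1370 to 1508), 2191 CPM (2136 to 2246) and 2046 CPM (2006 to 2086). Sema3a, a secreted repellent, gave 38.1%, 34.7% and 34.9% of these sums, at 548, 759 and 714 CPM. Of the membrane-bound semaphorins Sema5a had the most UMIs, at 317, 493 and 483 CPM. Sema7a, which is anchored to the membrane by a lipid, had only 2, 1 and 3 UMIs. The 9 plexins, the main semaphorin receptors, summed to 237, 284 and 251 CPM. Plxna2 stood at 71.8, 94.6 and 86.7 CPM, Plxna4 at 69.2, 51.2 and 40.9 CPM, and Plxnb2 slightly above Plxna4 at both later stages (53.0 and 42.7 CPM). The co-receptor Nrp2 stood at 188, 153 and 144 CPM and Nrp1 at 79.4, 188 and 301 CPM. Nrp2 had the more UMIs of the pair at E13.5 and Nrp1 at both later stages.

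Most ephrin UMIs of the mesenchyme were of a single gene. Efna5, whose product is held to the membrane by a lipid anchor and binds EphA receptors, stood at 936, 1209 and 1250 CPM, which was 83.6%, 83.7% and 84.9% of the ephrin sum. The ephrin-B genes together gave 133, 182 and 168 CPM. On the receptor side, EphA genes summed to 1177 CPM (1116 to 1240.5), 2132 CPM (2078 to 2187) and 2012 CPM (1972 to 2052), and EphB genes to 182, 245 and 302 CPM. Epha3 had the most UMIs, at 510, 1065 and 1003 CPM, and Epha7 the next most, at 277, 558 and 471 CPM. Epha8 had 0, 1 and 1 UMIs.

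Of the Slits and Robos, 4 genes gave nearly all UMIs of the mesenchyme. Slit2 stood at 670, 710 and 866 CPM and Slit3 at 614, 787 and 933 CPM, while Slit1, the third gene of this family, had 2, 1 and 1 UMIs. Their receptors Robo1 (1200, 938 and 1396 CPM) and Robo2 (644, 1573 and 1489 CPM) gave nearly the whole Robo sum of 1845, 2512 and 2887 CPM. The other two, Robo3 with 1, 2 and 10 UMIs and Robo4 with 0, 1 and 0 UMIs, were at or close to 0. The netrins summed to only 44.8, 45.5 and 53.6 CPM, of which Ntn1 gave 34.6, 29.0 and 34.1 CPM and Ntn3 gave 5.91, 12.5 and 13.8 CPM. The 10 neuronal markers stood in mesenchymal-like cells at 7.82%, 2.46% and 2.31% of their neural-like level. Neuronal markers could exclude a cell from this class, so these shares are partly set by the gate. The 8 neural progenitor markers stood in mesenchymal-like cells at 55.3%, 278% and 240% of their neural-like level (267, 336 and 320 CPM). The part of either kind of RNA in these levels was not tested.

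**Figure D1:**
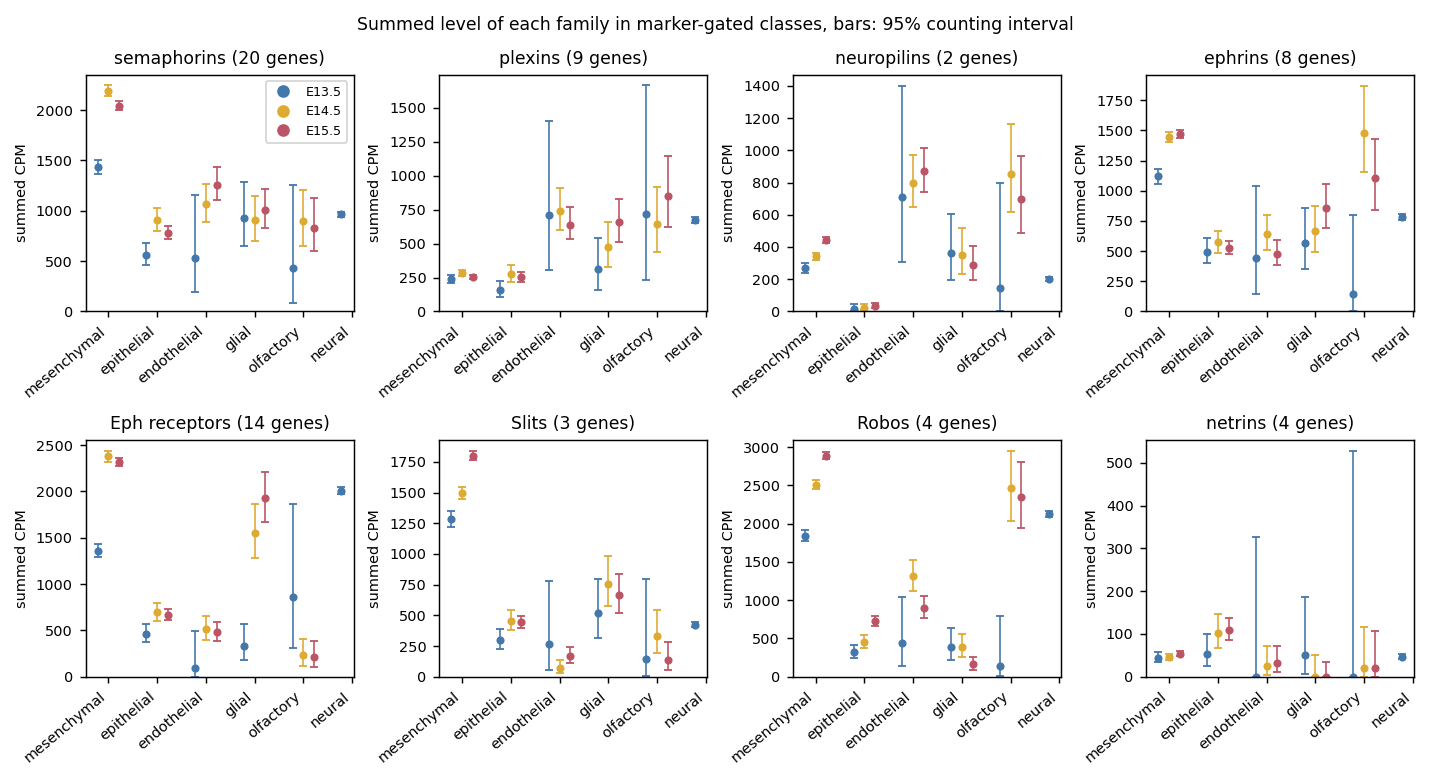
Summed CPM of each of the 8 families (vertical axes, each on its own scale from 0) in the marker-gated classes (horizontal axes), with 1 point per library coloured by stage and bars for the exact Poisson 95% interval. Neural-like cells are drawn at E13.5 only, the wide bars at E13.5 belong to classes of 1 to 13 cells, and the neuropilin sum is at 34.1 CPM or less in epithelial-like cells but at 711 CPM or more in endothelial-like cells.

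Each of 4 classes was compared with mesenchymal-like cells over the 3 libraries with edgeR's quasi-likelihood test on class sums, fitted over all genes with the library as a block and Benjamini-Hochberg adjustment over all genes tested. The libraries are of 3 stages, so the spread behind each p-value includes any change of the difference with stage, and the 4 comparisons share the mesenchymal sums. A gene was called at an adjusted p under 0.05. Many of the 64 genes entered a test only because their mesenchymal sums passed the filter on low counts, 10 in the epithelial, 22 in the endothelial, 16 in the glial and 25 in the olfactory comparison. Others passed only through the sums of the other class: Plxnb1 and Sema4d in the epithelial, Robo4, Plxnd1 and Efna1 in the endothelial, Sema3b in the glial and Plxnc1 in the olfactory comparison. A gene that enters a test through 1 side only is favoured to be higher on that side, so counts, medians and the calls of these genes are given as descriptions. Runs with no low-count filter tested 21732, 21210 and 21154 genes in the epithelial, endothelial and glial comparisons. There the calls of Plxnb1, Robo4, Plxnd1, Efna1 and Sema3b stayed, at log2 fold changes of 2.34, 8.98, 4.58, 2.98 and 4.89.

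Endothelial-like cells had more neuropilin and plexin RNA than mesenchymal-like cells and less Eph, Slit and Robo RNA in every library. Plexins summed to 711, 742 and 641 CPM and neuropilins to 711, 799 and 869 CPM, against 237, 284 and 251 CPM and 268, 341 and 444 CPM in mesenchyme. The plexin excess was that of Plxnd1, which gave 62.5%, 73.6% and 78.0% of the sum. The other 8 plexins summed to 266.5 (3 UMIs), 196 and 141 CPM against 230, 268 and 227 CPM, and of 6 plexins tested 1 was called higher and 1 lower. Semaphorins summed to 533, 1068 and 1260 CPM, of which the transmembrane class 6 gave 355, 709 and 852 CPM. Ephrins (444, 644 and 478 CPM), Eph receptors (88.8, 514 and 483 CPM), Slits (266.5, 73.4 and 168 CPM) and Robos (444, 1313 and 901 CPM) lay below their mesenchymal sums. For ephrins this was the low level of Efna5, without which the sums of 266.5 (3 UMIs), 375 and 331 CPM stood above the mesenchymal 183, 236 and 222 CPM. Netrins, at 0, 3 and 6 UMIs, could not be told from their mesenchymal level at this depth. Of 39 genes tested, 7 were higher than in mesenchymal-like cells, against 6.8% of all genes tested, and 18 were lower, against 10.9%. Their median log2 fold change was -1.23, beside -0.15 for all genes tested. Robo4, an endothelial receptor that guards vessel integrity (ENSMUSG00000032125, chromosome 9, 37401897 to 37415115, plus strand, GRCm38), stood at 88.8, 106 and 125 CPM in endothelial-like cells. In mesenchymal-like cells it had a single UMI in all, and in epithelial-like, glial-like and olfactory-like cells it had none. Pooled over the libraries, it was 1029-fold above mesenchyme (counting interval 173 to 41708), and the edgeR adjusted p was 5.05e-37. Plxnd1, a receptor of the secreted Sema3e (ENSMUSG00000030123, chromosome 6, 115954811 to 115995005, minus strand), stood at 444, 546 and 499 CPM against 7.60, 16.1 and 24.4 CPM. The groups lay far apart in every library, with a log2 fold change of 4.71 (SE 0.38, edgeR adjusted p = 1.15e-32). Robo4 and Plxnd1 stayed past the threshold under every alternative run.

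The 5 other genes called higher in endothelial-like cells belong to the ephrin, Eph, semaphorin and neuropilin families. Efna1 (ENSMUSG00000027954, chromosome 3, 89271733 to 89281142, minus strand), an ephrin-A of vessels, stood at 88.8, 48.9 and 86.9 CPM against 4.22, 8.60 and 8.01 CPM, a log2 fold change of 3.12 (SE 0.51, edgeR adjusted p = 3.59e-08). The E13.5 value is 1 UMI, and the call was lost without E15.5 (edgeR adjusted p = 0.221). Efnb2, the ephrin-B known for marking arteries, stood at 178, 310 and 212 CPM against 33.8, 74.9 and 70.9 CPM (log2 fold change 1.79). Ephb4, the receptor known for marking veins, stood at 88.8, 57.1 and 92.3 CPM against 19.4, 45.9 and 45.0 CPM, without overlap, and missed the threshold (log2 fold change 0.80, SE 0.45, edgeR adjusted p = 0.245). Ephb1 (0, 97.8 and 233 CPM) overlapped the mesenchymal range of 32.1 to 44.2 CPM, with a log2 fold change of 1.82. Sema6d, a transmembrane semaphorin that can signal with Kdr, stood at 88.8, 261 and 277 CPM against 31.2, 49.5 and 56.5 CPM (log2 fold change 2.24). Nrp2, a co-receptor best known from veins and lymphatic vessels, stood at 355, 375 and 407 CPM against 188, 153 and 144 CPM (log2 fold change 1.17). Nrp1, which also binds vascular endothelial growth factor, stood at 355, 424 and 461 CPM against 79.4, 188 and 301 CPM. The values of Nrp1 did not overlap, but the gene missed the threshold at a log2 fold change of 0.94 (SE 0.39, edgeR adjusted p = 0.0840). Efnb2, Sema6d and Ephb1 lost their calls without E14.5 and without E15.5, at edgeR adjusted p from 0.203 to 0.975, and Ephb1 also with DESeq2 (adjusted p = 0.266).

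Several Eph receptors and both Slits of the mesenchyme were at a small share of their mesenchymal level in endothelial-like cells. Ephb2 had no UMI there and 1162 in mesenchymal-like cells, at least 13.9-fold lower with 3 UMIs allowed over the pooled libraries. Epha5 had a single UMI, a pooled ratio of 0.0156 (0.000395 to 0.0872). Epha3 (0, 57.1 and 32.6 CPM) and Epha7 (0, 32.6 and 32.6 CPM) had log2 fold changes of -4.65 (SE 0.58) and -4.02 (SE 0.57). Slit2 stood at 88.8, 8.15 and 92.3 CPM, a log2 fold change of -3.96 (SE 0.55), and Slit3 at 178, 65.2 and 76.0 CPM, a log2 fold change of -3.48 (SE 0.52). Sema3a stood at 0, 130 and 109 CPM (log2 fold change -2.80, SE 0.48), and Efnb1 had 2 UMIs (pooled ratio 0.124, 0.0150 to 0.452). The call of Efnb1 was lost without E14.5 and without E15.5 (edgeR adjusted p = 0.227 and 0.464). Robo1, at 267, 636 and 641 CPM, and Robo2, at 88.8, 571 and 136 CPM, were lower by log2 fold changes of -1.23 (SE 0.43) and -2.52 (SE 0.48), the opposite direction to Robo4. Ntn1, at 0, 8.15 and 21.7 CPM, missed the threshold (edgeR adjusted p = 0.360). Without E14.5 the calls numbered 12 in place of 25, and without E15.5 they numbered 11.

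**Figure D2:**
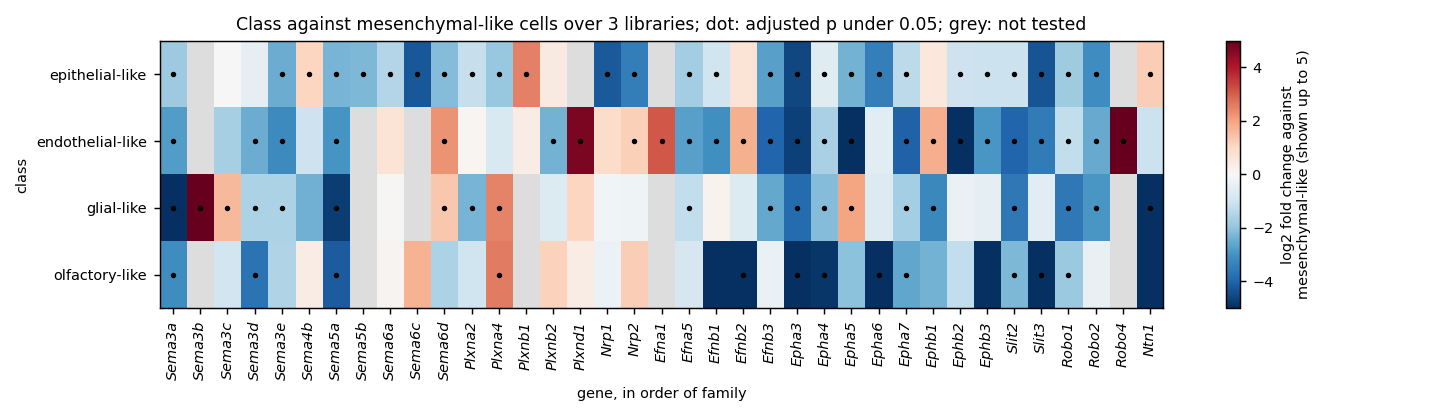
Log2 fold change of 37 named genes (columns, in order of family) in each class (rows) against mesenchymal-like cells over 3 libraries, coloured from blue (lower) to red (higher) and shown up to 5 either way, with a dot for an edgeR adjusted p under 0.05 and grey where the gene was not tested. Darkest blue cells include genes with no UMI in the class, whose fitted value is no measure of size, and Epha3 carries a dot in all 4 rows.

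Epithelial-like cells held less of most of these RNAs, with 3 exceptions among the genes called. Semaphorins summed to 564, 905 and 782 CPM, Eph receptors to 462, 695 and 666.5 CPM, ephrins to 494, 572 and 527 CPM, Slits to 301, 456 and 442 CPM and Robos to 328, 456 and 730.4 CPM, each below its mesenchymal sum in all 3 libraries. The neuropilins were the family furthest below, at 16.1, 21.1 and 34.1 CPM. Plexins (156, 274 and 251.5 CPM) were below their mesenchymal sum at E13.5 and close to it later, and netrins (53.7, 102 and 109 CPM) lay above theirs at E14.5 and E15.5. The netrin sum was mostly Ntn1, without which netrins stood at 5.37, 7.02 and 27.0 CPM against 10.1, 16.5 and 19.5 CPM. The ephrin difference was mostly that of Efna5, without which ephrins stood at 204, 179 and 178 CPM against 183, 236 and 222 CPM. Of 42 genes tested, 3 were higher than in mesenchymal-like cells, against 17% of all genes tested, and 25 were lower, against 17.5%. The median log2 fold change was -1.08, beside -0.01 for all genes. Plxnb1, a receptor of the transmembrane Sema4d (ENSMUSG00000053646, chromosome 9, 109095389 to 109119917, plus strand), stood at 37.6, 87.7 and 65.4 CPM against 9.29, 16.1 and 9.04 CPM. Its values did not overlap, with a log2 fold change of 2.53 (SE 0.30, edgeR adjusted p = 3.23e-05), and the call stood under every alternative run. Ntn1 (ENSMUSG00000020902, chromosome 11, 68209364 to 68400823, minus strand), the netrin with the most UMIs in the mesenchyme, stood at 48.4, 94.8 and 82.4 CPM against 34.6, 29.0 and 34.1 CPM, a log2 fold change of 1.24 (SE 0.26, edgeR adjusted p = 0.00229). Sema4b, a transmembrane semaphorin, stood at 32.2, 59.7 and 51.2 CPM against 16.0, 29.7 and 22.6 CPM (log2 fold change 1.06, SE 0.28, edgeR adjusted p = 0.0100). Without E15.5 Ntn1 and Sema4b lost their calls (edgeR adjusted p = 0.0615 and 0.144) and 18 calls were left in place of 28. Sema4b also lost its call with DESeq2 (adjusted p = 0.0803).

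The neuropilins, Epha3, Slit3 and Epha6 stood far below mesenchyme in epithelial-like cells. Nrp1 stood at 5.37, 7.02 and 18.5 CPM (log2 fold change -4.18, SE 0.28), and Nrp2 at 10.7, 14.04 and 15.6 CPM (log2 fold change -3.45, SE 0.27). Epha3 stood at 21.5, 38.6 and 49.7 CPM (log2 fold change -4.53, SE 0.18) and Slit3 at 10.7, 45.6 and 55.4 CPM (log2 fold change -4.30, SE 0.21). Epha6 stood at 0, 3.51 and 7.11 CPM against 42.2, 72.0 and 47.9 CPM (log2 fold change -3.42, SE 0.45). All 5 genes lay below their mesenchymal range in each library. Sema6c had a single UMI (pooled ratio 0.0505, 0.00127 to 0.286). Slit2 stood at 290, 411 and 381 CPM, a log2 fold change of -1.07 (SE 0.14), and gave 86.2% to 96.4% of the Slit UMIs of the epithelium. Sema3a stood at 156, 270 and 175 CPM (log2 fold change -1.80, SE 0.16). Of the Slit receptors, Robo1 stood at 183, 316 and 578 CPM (log2 fold change -1.76, SE 0.20) and Robo2 at 145, 140 and 152 CPM (log2 fold change -3.10, SE 0.22). Efnb1, the X-linked ephrin-B, stood at 21.5, 28.1 and 25.6 CPM (log2 fold change -0.996, SE 0.28), but its call was lost with DESeq2 (adjusted p = 0.118) and without E14.5 or E15.5 (edgeR adjusted p = 0.0740 and 0.117). Efnb2 stood at 118, 102 and 92.4 CPM, above the mesenchymal values in each library, and missed the threshold (log2 fold change 0.69, edgeR adjusted p = 0.0654).

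**Figure D3:**
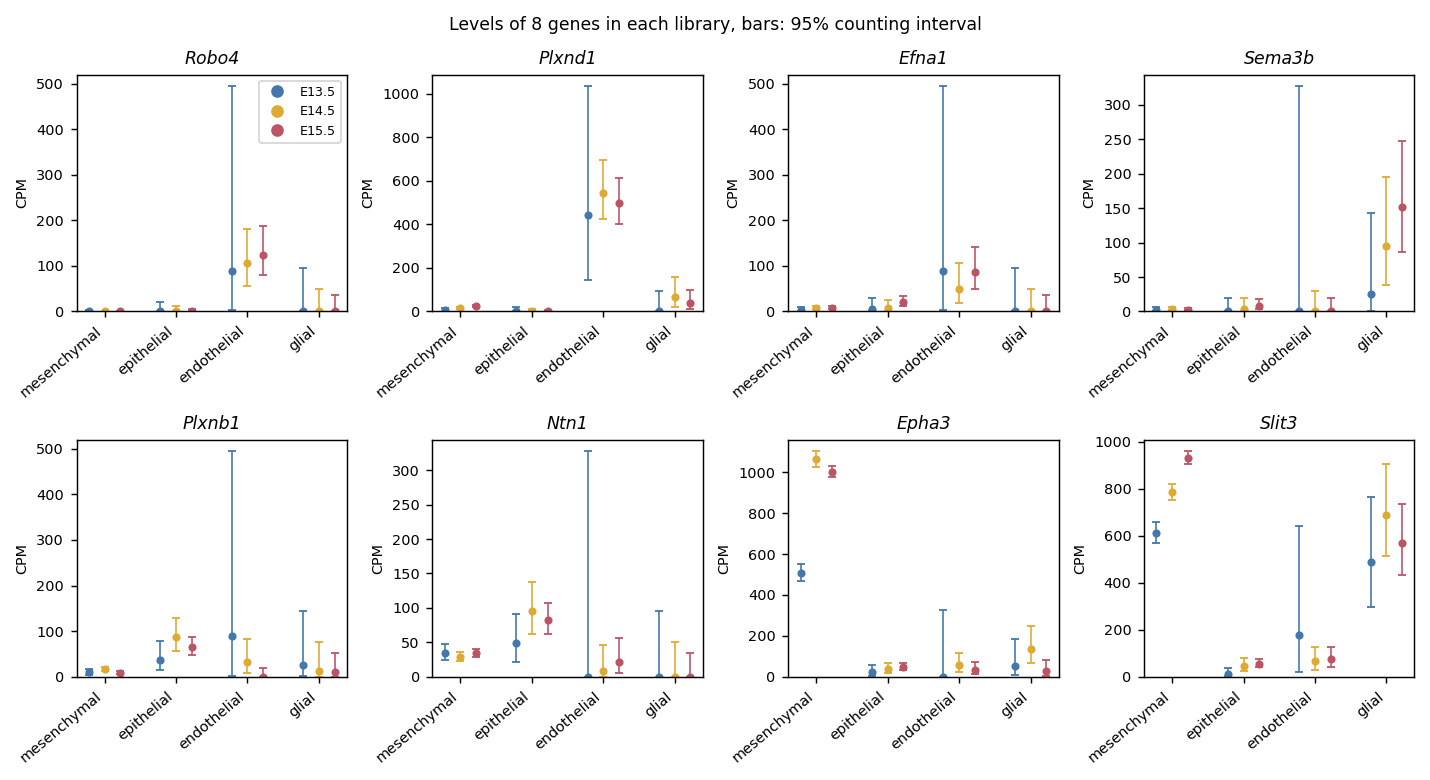
CPM of 8 genes (vertical axes, each on its own scale from 0) in mesenchymal-like, epithelial-like, endothelial-like and glial-like cells, with 1 point per library coloured by stage and bars for the exact Poisson 95% interval. Robo4, Plxnd1 and Efna1 are highest in endothelial-like cells, Sema3b in glial-like cells, Plxnb1 in epithelial-like cells at E14.5 and E15.5, and Epha3 in mesenchymal-like cells, while the wide bars at E13.5 rest on 0 to 5 UMIs.

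Glial-like cells, which carry markers of Schwann cells and their precursors, had plexin sums of 309, 473.5 and 656 CPM, above those of mesenchyme in each library, at E13.5 on 12 UMIs whose interval (160 to 540.3 CPM) includes the mesenchymal level. Plxna4 gave 50% to 69.6% of these sums, and the other 8 plexins, at 155, 203 and 200 CPM, stood slightly below their 168, 233 and 210 CPM in mesenchyme. Of 5 plexins tested 1 was called higher and 1 lower. Eph receptors summed to 335, 1556 and 1930 CPM, ephrins to 567, 663 and 855.5 CPM, semaphorins to 928, 906 and 1008 CPM and Slits to 515.5, 758 and 665 CPM, below mesenchyme in each library. Without Epha3 the Eph sums of E14.5 and E15.5, at 1420 and 1901 CPM, stood above the mesenchymal 1312 and 1310 CPM. Epha5 alone gave 54.8% and 73.9% of the glial Eph UMIs at these stages. Of 9 Eph receptors tested, 1 was called higher and 4 lower. Without Efna5 the ephrin sums crossed, at 232, 189 and 66.5 CPM against 183, 236 and 222 CPM, and without Sema3a the semaphorin sum of E13.5 was 928 CPM against 890 CPM. Robos summed to 387, 392 and 162 CPM, neuropilins to 361, 352 and 285 CPM, and netrins to 51.6, 0 and 0 CPM. Of 39 genes tested, 5 were higher than in mesenchymal-like cells, against 5.41% of all genes tested, and 15 were lower, against 8.73%, with a median log2 fold change of -0.69 beside -0.18 for all genes. Sema3b, a secreted semaphorin (ENSMUSG00000057969, chromosome 9, 107597674 to 107609229, minus strand), stood at 25.8, 94.7 and 152 CPM against 1.69, 3.94 and 2.67 CPM. Its log2 fold change was 5.09 (SE 0.63, edgeR adjusted p = 4.28e-14), on 24 UMIs in glial-like cells. Plxna4, a receptor that works with neuropilins, stood at 155, 271 and 456 CPM against 69.2, 51.2 and 40.9 CPM (log2 fold change 2.49, SE 0.33, edgeR adjusted p = 3.67e-12). Epha5 stood at 180, 852 and 1426 CPM against 125, 173 and 236 CPM (log2 fold change 1.96, SE 0.30, edgeR adjusted p = 1.58e-09). The E13.5 value of Epha5 lay inside the mesenchymal range and both later values lay far above it. Sema3c (51.6, 176 and 200 CPM, log2 fold change 1.64) and Sema6d (77.3, 135 and 162 CPM, log2 fold change 1.36) were also called higher. Both of these calls were lost without E14.5 and without E15.5, at edgeR adjusted p from 0.105 to 0.360, and that of Sema6d also with DESeq2 (adjusted p = 0.0867).

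Among the genes lower in glial-like cells, Sema3a had 0, 0 and 3 UMIs (pooled ratio to mesenchyme 0.0195, 0.00402 to 0.0570). Sema5a stood at 0, 27.1 and 19.0 CPM, a log2 fold change of -4.74 (SE 0.52). Epha3 stood at 51.6, 135 and 28.5 CPM (log2 fold change -3.84, SE 0.39) and Slit2 at 25.8, 67.6 and 95.1 CPM (log2 fold change -3.56, SE 0.38). Both main Robos were lower, Robo1 at 206, 108 and 57.0 CPM (log2 fold change -3.57, SE 0.35) and Robo2 at 180, 284 and 105 CPM (log2 fold change -2.92, SE 0.33). Slit3 on the other hand stood at 490, 690 and 570 CPM against 614, 787 and 933 CPM and missed the threshold (edgeR adjusted p = 0.224). Ntn1 had no UMI, at least 2.37-fold lower with 3 UMIs allowed over the pooled libraries, and its call was lost with DESeq2 (adjusted p = 0.0982), without E14.5 and without E15.5 (edgeR adjusted p = 0.125 and 0.268). Nrp1 stood at 335, 189 and 85.6 CPM against 79.4, 188 and 301 CPM, so the values crossed. Efnb1, at 103, 67.6 and 38.0 CPM, did not pass either (edgeR adjusted p = 0.899). The 3 fibrillar collagens stood in glial-like cells at 20.2%, 55.2% and 60.4% of their mesenchymal level, and the 10 mesenchymal markers at 18.5%, 40.5% and 45.9%. Col1a1, Pdgfra, Twist1, Prrx1 and Prrx2 were at 0 at E13.5, Twist2 at E14.5, and Twist1, Twist2 and Prrx2 at E15.5, and the part of mesenchymal RNA in these values was not tested. The 8 neural progenitor markers summed to 4691, 676 and 1036 CPM in glial-like cells, beside 482, 121 and 134 CPM in neural-like cells. Of these markers 6, 4 and 5 were found, with Sox1 and Pax6 at 0 in every library, and their part in the glial values was not tested. DESeq2 called 13 genes in place of 20, and edgeR called 13 without E14.5 and 12 without E15.5.

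Olfactory-like cells, which carry markers of olfactory sensory neurons, rested on 32 cells, and the E13.5 sum is 1 cell. At E14.5 and E15.5 neuropilins summed to 856 and 698 CPM and plexins to 647 and 853 CPM, above their mesenchymal sums. Plxna4 gave 12 of 31 and 30 of 44 plexin UMIs at these stages. Without it plexins stood at 397 and 271 CPM against 233 and 210 CPM. These remainders rest on few UMIs, and their distance from mesenchyme was not tested. Without Nrp2 the neuropilin values crossed (209 and 271 CPM against 188 and 301 CPM). Semaphorins (897 and 833 CPM), Eph receptors (230 and 213 CPM) and Slits (334 and 136 CPM) lay below theirs. Robos were close to mesenchyme at E14.5 (2463 CPM, interval 2038 to 2949, against 2512 CPM) and below it at E15.5 (2345 against 2887 CPM), and netrins had 1 UMI at either stage. Ephrins, at 1482 and 1105 CPM, lay on either side of the mesenchymal 1445 and 1472 CPM. Of 40 genes tested, 1 was higher than in mesenchymal-like cells, against 3.65% of all genes tested, and 11 were lower, against 6.93%, with a median log2 fold change of -1.33 beside -0.53 for all genes. With the 5 tested genes that had no olfactory UMI set at the bound that 3 UMIs allow, the median was -0.97. Plxna4 stood at 143, 250 and 581 CPM (log2 fold change 2.58, SE 0.54, edgeR adjusted p = 7.97e-05). The E13.5 value of Plxna4 is 1 UMI. Slit3 had a single UMI (pooled ratio 0.0111, 0.000282 to 0.0620) and Epha3 had 3 (pooled ratio 0.0294, 0.00607 to 0.0861). Efnb2 and Epha6 had none, at least 2.38-fold and at least 1.94-fold lower with 3 UMIs allowed over the pooled libraries. Slit2 (143, 313 and 116 CPM, log2 fold change -2.26) and Sema3a (0, 83.5 and 136 CPM, log2 fold change -3.11) were called lower, and Nrp1 (0, 209 and 271 CPM), Efnb1 (0 UMIs) and Ntn1 (0 UMIs) were not called. Robo2 stood at 2004 and 1783 CPM at E14.5 and E15.5 against 1573 and 1489 CPM, and missed the threshold (edgeR adjusted p = 0.741). Without E14.5 or without E15.5 only 2 genes were called, Epha3 and Slit3, and Plxna4 was not (edgeR adjusted p = 0.745 and 0.901). Efnb2 also lost its call with DESeq2 (adjusted p = 0.111), and Epha6 when no doublets were left out (edgeR adjusted p = 0.0506). The neuronal markers stood in these cells at 75.7% to 89.6% of their neural-like level, and the epithelial markers at 5.67% to 15.9% of their epithelial-like level, with 4 of 10 epithelial markers found at E14.5 and E15.5.

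Of the cells kept at E13.5, 47.1% were neural-like, and their profile was set beside that of the mesenchymal-like cells of that library. Robos summed to 2122 CPM, Eph receptors to 2008 CPM, semaphorins to 964 CPM, ephrins to 783 CPM, plexins to 673 CPM, Slits to 425 CPM, neuropilins to 199.5 CPM and netrins to 46.0 CPM. In that library the mesenchymal-like cells had less plexin RNA (237 CPM) and more Slit RNA (1285 CPM). With 1 library there is no test, and a gene is described as apart where it reached 20 CPM and 10 UMIs in the higher class and differed at least 2-fold after 1 CPM was added to both. A gene that meets this minimum through 1 side only is favoured to be apart in that direction. Counts by this rule, here and further on, are therefore descriptions. Of 39 genes at that minimum, 12 were higher in neural-like cells, against 11.9% of all genes, and 8 were lower, against 13.8%. Of the higher genes, Sema6d stood at 249 CPM against 31.2 CPM (7.98-fold, counting interval 5.76 to 11.4), Epha5 at 818 against 125 CPM (6.55-fold, 5.56 to 7.76) and Ephb1 at 152 against 32.1 CPM (4.75-fold, 3.43 to 6.76). Plxna4 stood at 287 against 69.2 CPM (4.15-fold, 3.32 to 5.24). Plxna1, Plxna2, Plxnb1 and Plxnc1 were higher as well, so 5 of the 9 plexins were among the 12. Plxna1, Plxnb1 and Plxnc1, at 16.9, 9.29 and 12.7 CPM in mesenchymal-like cells, met the minimum only through the neural-like cells, as did Slit1. Slit1, a Slit best known from the brain, stood at 30.4 CPM on 171 UMIs against 1.69 CPM on 2 UMIs, with a counting interval of the ratio of 4.91 to 150. Of the lower genes, Sema3d stood at 10.5 against 76.8 CPM (0.137-fold, 0.0967 to 0.192), Sema3a at 84.1 against 548 CPM (0.153-fold, 0.136 to 0.173), Slit3 at 98.9 against 614 CPM (0.161-fold, 0.144 to 0.180) and Sema3e at 19.7 against 80.2 CPM (0.246-fold, 0.185 to 0.327). Ephb3 stood at 7.82 against 32.1 CPM (0.244-fold, 0.154 to 0.387). The other 3 were Efna4 (5.69 against 22.8 CPM), Slit2 (295 against 670 CPM) and the transmembrane Sema5a (144 against 317 CPM). Sema3d, Sema3e, Ephb3 and Efna4, under 20 CPM in neural-like cells, met the minimum only through the mesenchymal-like cells. Robo1 (1269 against 1200 CPM) and Nrp1 (71.5 against 79.4 CPM) differed by less than 2-fold. The part of mesenchymal RNA in the neural-like values, the lower ones included, was not tested.

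**Figure D4:**
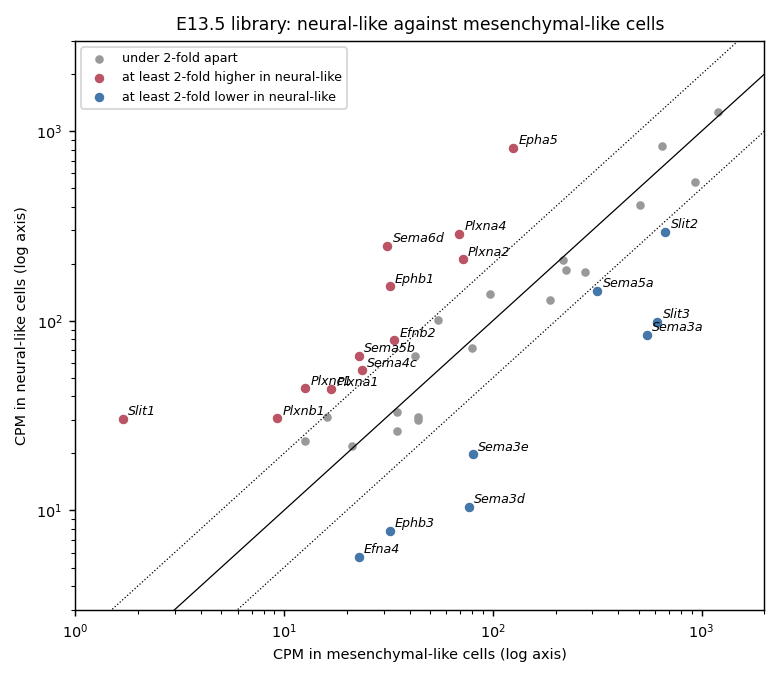
CPM of the 39 genes at the minimum in neural-like cells (vertical, log axis) against mesenchymal-like cells (horizontal, log axis) of the E13.5 library, with a solid line at equal levels and dotted lines at 2-fold either way. The 12 genes at least 2-fold higher in neural-like cells are red, with Slit1 at the left edge on 2 mesenchymal UMIs, and the 8 genes at least 2-fold lower are blue.

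The E13.5 neural-like cells were themselves mixed, with 1485 cells led by neuronal markers, 98 led by progenitor markers and 105 between. Nrp2 stood at 145 CPM in the neuronal cells against a single UMI in the progenitors (41.4-fold, counting interval 7.41 to 1639), Plxna4 at 317 against 56.1 CPM (5.65-fold, 3.47 to 9.92), Robo2 at 911 against 175 CPM (5.199-fold, 3.94 to 7.02) and Robo1 at 1367 against 277 CPM (4.94-fold, 3.96 to 6.24). Sema6d stood at 279 against 52.6 CPM (5.31-fold, 3.21 to 9.51). Ntn1, which neural progenitors of the ventral midline are known to make, stood at 18.6 CPM in the neuronal cells against 119 CPM in the progenitors (0.156-fold, 0.104 to 0.239). Sema5b (55.2 against 175 CPM), Efnb1 (24.6 against 70.1 CPM) Efnb2 (75.9 against 137 CPM) and the receptor Epha4 (197 against 340 CPM) were also lower in the neuronal cells. Slit3, a ligand, was higher there (90.6 against 7.01 CPM, 12.9-fold, 3.56 to 107), and the intervals of Ephb1, Ephb2 and Plxnc1 included equal levels. Epha5 (854 against 887 CPM) and Slit2 (291 against 298 CPM) were close to level. Both sets are cells of 1 library, and the intervals cover counting error only.

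Stages were compared within mesenchymal-like cells, without a test because each stage is 1 library. Between E13.5 and E15.5, 38 genes met the minimum of 20 CPM and 10 UMIs, and 7 of them were higher by 2-fold or more at E15.5, against 8.78% of all genes, and 0 were at least 2-fold lower, against 4.31%. The median log2 ratio of the 38 was 0.43, beside -0.06 for all genes. Sema4d (9.29 CPM), Plxnd1 (7.60 CPM) and Ephb4 (19.4 CPM) were under 20 CPM at E13.5. They met the minimum only through E15.5, so their places among the 7 are descriptions. Sema4d, a transmembrane semaphorin, stood at 9.29, 21.9 and 43.3 CPM (4.67-fold, counting interval 2.56 to 9.49). Nrp1 stood at 79.4, 188 and 301 CPM (3.79-fold, 3.07 to 4.72), and Plxnd1, with which it forms receptors for class 3 semaphorins, at 7.60, 16.1 and 24.4 CPM (3.22-fold, 1.64 to 7.21). Each of these 3 genes was higher at E14.5 than at E13.5 and higher again at E15.5. Sema3d (76.8, 243 and 215 CPM), Robo2 (644, 1573 and 1489 CPM), Ephb4 (19.4, 45.9 and 45.0 CPM) and Efnb2 (33.8, 74.9 and 70.9 CPM) had their whole difference between E13.5 and E14.5. Among the 38 genes the lowest ratio belonged to Plxna4, at 69.2, 51.2 and 40.9 CPM (0.590-fold, 0.454 to 0.773), followed by Efna4 (0.613-fold), Sema5b (0.730-fold), Nrp2 (0.764-fold) and Efnb3 (0.902-fold). With cluster shares kept constant, an alternative added once the values were known, the log2 ratio was 2.25 for Nrp1 and 2.12 for Plxnd1, over 3 clusters that held 81.5%, 34.7% and 31.8% of the mesenchymal-like cells. It was 0.997 for Sema4d, 0.65 for Robo2 and 0.46 for Sema3d, under 2-fold for all 3 genes, against 2.11, 1.21 and 1.47 as gated. The ratios of Sema5b (0.77) and Efnb3 (0.17) turned. Clusters in place of the gate gave 0.54 for Sema4d.

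From E14.5 to E15.5 none of the 37 genes at the minimum differed 2-fold in mesenchymal-like cells, against 0.873% of all genes higher and 0.757% lower. Sema4d came closest at 1.98-fold (1.48 to 2.68), and Nrp1 stood at 1.60-fold (1.45 to 1.77), Plxnd1 at 1.52-fold (1.07 to 2.19) and Robo1 at 1.49-fold (1.42 to 1.56). Among the 37 genes Epha6 had the lowest ratio, at 0.665-fold (0.548 to 0.807). The ratio of Sema4d turned with clusters in place of the gate (log2 ratio -0.41) and with the cluster mix fixed (-1.23), against 0.96 here, and that of Epha6 turned with the cluster mix fixed (0.81 against -0.58).

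**Figure D5:**
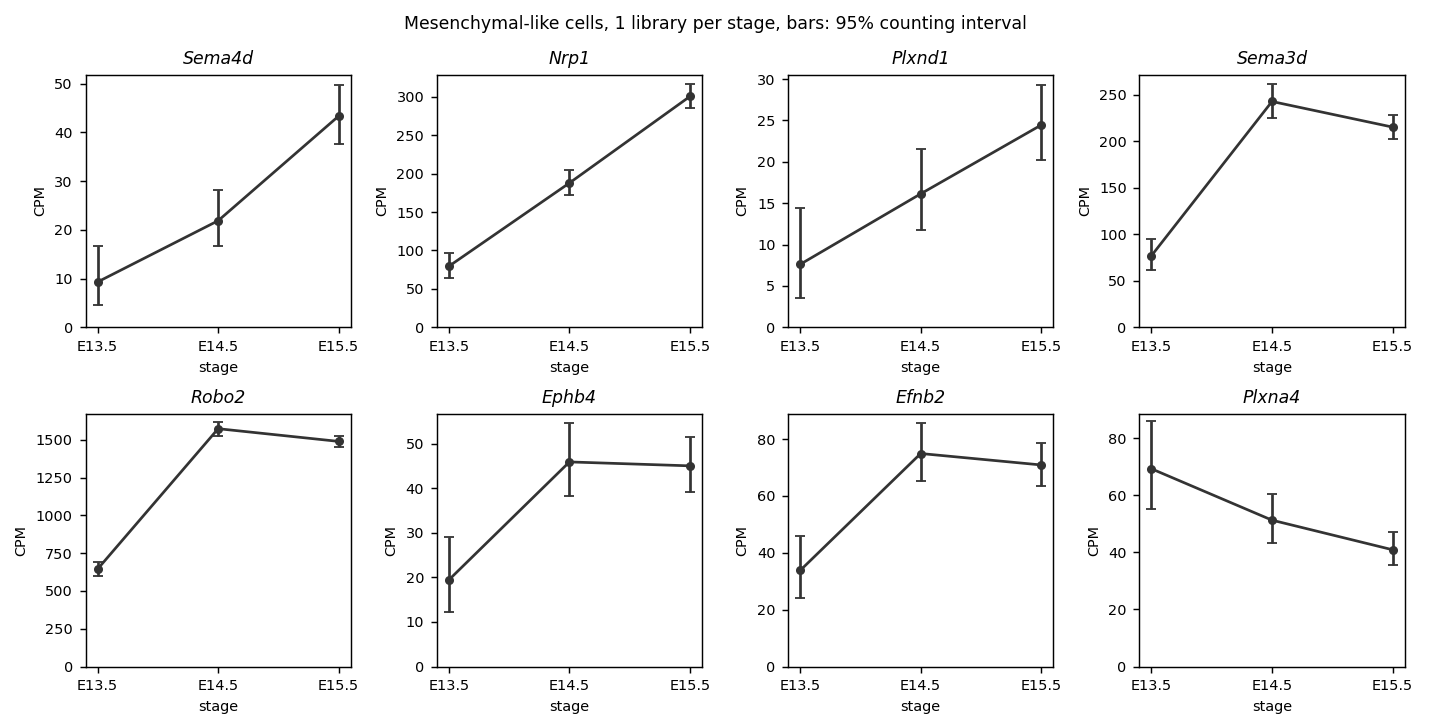
CPM (vertical axes, each on its own scale from 0) of the 7 genes whose E15.5 level in mesenchymal-like cells was 2-fold or more of the E13.5 level, and of Plxna4, which had the lowest ratio, at each stage (horizontal axes), with bars for the exact Poisson 95% interval. Sema4d, Nrp1 and Plxnd1 are higher at each later stage, and the other 4 of the 7 are level or lower from E14.5 to E15.5.

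In epithelial-like cells 29 genes met the minimum at E14.5 or E15.5. The compared cells are the 73 and 185 gated ones. The 3 epithelial-like clusters, which also hold other cells, had 111, 53 and 43 cells at E14.5 and 96, 177 and 98 at E15.5. In the cluster of 111 and 96 cells, 84 of 361 cells over all stages took a class, 59.5% of them epithelial-like. The makeup of the compared cells, and its part in the differences, was not tested. Of the 29 genes, 4 were at least 2-fold higher at E15.5, against 9.99% of all genes, and 2 were at least 2-fold lower, against 3.73%. Sema5a stood at 45.6 CPM at E14.5 and 149 CPM at E15.5 (3.27-fold, counting interval 1.83 to 6.35). Ntn4 had 1 UMI at E14.5 and 16 at E15.5 (6.48-fold, 1.01 to 272). The intervals of Plxna1 (2.33-fold, 0.796 to 9.26) and Epha5 (2.09-fold, 0.860 to 6.13) included equal levels. Ntn4, Plxna1 and Epha5 had 1, 4 and 6 UMIs at E14.5, so they met the minimum only through E15.5. Sema3c stood at 84.2 and 36.9 CPM (0.439-fold, 0.242 to 0.798) and Epha7 at 298 and 145 CPM (0.486-fold, 0.361 to 0.656). Epha7 was level when at least 4 markers were asked of a cell (log2 ratio 0.06 against -1.04).

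The 33 other genes listed for these pathways, which are netrin receptors, further ligands and surface proteins such as Draxin, the Flrt and Rgm genes and L1cam, and effectors inside the cell, were counted in the same fits. In epithelial-like cells 2 of 25 tested were higher and 8 lower, against 17% and 17.5% of all genes tested. In endothelial-like cells 5 of 23 were higher and 8 lower, against 6.8% and 10.9%. In glial-like cells 1 of 21 was higher and 7 lower, against 5.41% and 8.73%. In olfactory-like cells 5 of 23 were higher and 7 lower, against 3.65% and 6.93%. Netrin receptors were called in both directions. Dcc, the attractive netrin receptor, stood at 366, 488 and 581 CPM in mesenchymal-like cells against 69.9, 35.1 and 56.8 CPM in epithelial-like cells (log2 fold change -3.26, SE 0.23, edgeR adjusted p = 4.74e-07). In endothelial-like cells Dcc had 2 UMIs (edgeR adjusted p = 2.33e-15). Unc5d, a repulsive receptor of the same ligand family, stood at 334, 331 and 212 CPM in mesenchymal-like cells, at 10.7, 14.04 and 4.26 CPM in epithelial-like cells (log2 fold change -5.09, SE 0.28, edgeR adjusted p = 8.82e-08) and at 0 UMIs in glial-like cells. Unc5b, a netrin receptor known from vessels, was higher in endothelial-like cells, at 0, 97.8 and 119 CPM against 5.07, 14.7 and 10.7 CPM (log2 fold change 3.10, SE 0.45, edgeR adjusted p = 1.84e-10). Its E13.5 value is 0 UMIs. Dscam, a receptor that can also bind netrin, was higher in epithelial-like cells, at 16.1, 38.6 and 25.6 CPM against 5.91, 10.4 and 11.7 CPM (log2 fold change 1.40, SE 0.38, edgeR adjusted p = 0.0116). Dscam reached the low-count filter in 3 epithelial-like sums but in 1 mesenchymal-like sum, and Unc5b in 2 endothelial-like sums and 1 mesenchymal-like sum, so their calls are descriptions. With no low-count filter the log2 fold changes were 1.23 for Dscam (edgeR adjusted p = 0.0210) and 2.96 for Unc5b (edgeR adjusted p = 2.69e-10). Flrt1 had no UMI in endothelial-like cells, Vav3 had 1 in glial-like cells, and Ntng1 and Srgap3 had none in olfactory-like cells, each called lower. Beside the E13.5 mesenchymal-like cells, 16 of the 28 at the minimum were at least 2-fold higher in neural-like cells, against 11.9% of all genes, and 1 was lower, against 13.8%.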

How the data were processed

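Dissociated palatal shelf cells were profiled as single cells with 10x Genomics chemistry, 1 library per stage. The authors deposited a matrix of UMI counts for each library. Per the file headers and the submitters' processing notes it came from Cell Ranger 6.1.2, and those notes name mm10. Which end of the transcript was read is not given in the sources used here. Cells with at least 500 genes and at most 20% mitochondrial UMIs were kept, and the top doublet scores were left out at 0.8% per 1000 cells. That removed 109, 25 and 56 cells. Counts were summed per library and class of cells, a class needing 3 markers with a UMI.

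The 4 class comparisons used edgeR 4.0.16 (quasi-likelihood test, TMM scaling, low-count filter, library as a block, Benjamini-Hochberg adjustment over all genes) in R 4.3.3, with DESeq2 1.42.0 as an alternative. Stages were compared by size only, at 20 CPM, 10 UMIs and 2-fold on CPM + 1. Neural-like cells were called neuronal or progenitor where markers of that kind were at least 2 times as many as of the other. The script was tested on simulated counts. Genes were named as the 2 with the highest mean CPM per family in mesenchyme, the 6 largest higher and 4 largest lower calls per class, the 5 largest differences each way in the comparisons by size, 6 genes in every class (Robo4, Ntn1, Sema3a, Nrp1, Efnb1 and Slit2) and 2 other pathway genes per class. Others named (Ephb4, Unc5b, Dscam, Sema6c, Sema7a, Epha8, Robo3 and Ntn3 among them) were chosen after their values were seen. The genes and lists were chosen with earlier results of these data known. Loci are from GENCODE M21 (GRCm38) and promoters from RefSeq.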

Additional observations from a re-analysis of the deposited data

Results flagged for a closer look

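Between E14.5 and E15.5, the log2 ratios of 3 genes at least 2-fold apart in epithelial-like cells had the opposite sign in mesenchymal-like cells, where all 3 were small. The difference between the classes was not tested, because each stage is 1 library. Sema5a had a log2 ratio of 1.69 in epithelial-like cells and of -0.03 in mesenchymal-like cells, which is close to level (493 and 483 CPM, with overlapping intervals). Sema3c had -1.17 against 0.12, the latter from 47.3 to 51.6 CPM with overlapping intervals. Plxna1 had 1.16 against -0.32, on 23 and 4 epithelial UMIs. The counting interval of its epithelial ratio (0.796 to 9.26) included equal levels, and its mesenchymal log2 ratio turned to 0.15 with the cluster mix fixed.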

How the results depend on the processing

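The number of genes called was within 1.5 times of that reported under the alternatives run except these. Leaving out 1 library gave 18 to 32 calls in epithelial-like cells (18 without E15.5), 11 to 29 in endothelial-like cells (12 without E14.5, 11 without E15.5), 12 to 21 in glial-like cells (13 without E14.5, 12 without E15.5) and 2 to 18 in olfactory-like cells (2 without E14.5 and 2 without E15.5). DESeq2 gave 13 in glial-like cells, and moved the median log2 fold change of all genes in endothelial-like cells from -0.15 to -0.38. A minimum of 5 CPM and 5 UMIs gave 12 genes apart between E13.5 and E15.5 in mesenchyme and 13 between E14.5 and E15.5 in epithelium. Between E14.5 and E15.5 in mesenchyme, 1 gene was apart with no doublets left out and 4 with the cluster mix fixed. Signs turned for Efnb1 in glial-like cells, from 0.17 to -0.063 with at least 2 markers, while leaving out 1 library gave -0.20 (without E13.5) to 0.49 (without E15.5). There Nrp1 turned from -0.15 to 0.037 with cluster classes, and leaving out 1 library gave -1.04 (without E13.5) to 0.78 (without E15.5). Signs also turned for Nrp1 (0.012) and Ntn1 (0.59) in an olfactory cluster, chosen after seeing the data, which gave 18 calls, 8 of them shared with the gate. With the cluster mix fixed they turned for Efnb3 (0.17) and Sema5b (0.77) against E13.5, and for Epha6 (0.81), Plxna1 (0.15) and Sema4d (-1.23, and -0.41 with cluster classes) against E14.5. In epithelium Epha7 (0.060) and Sema6a (0.036) turned with at least 4 markers and Sema3a (0.020) with cluster classes. The cause was not tested. Of the alternatives for named genes, 632 kept direction and call, 42 lost the call, 10 gained it, 16 untested values moved and 15 turned. A rule of at least 4 markers gave no olfactory value, since the E13.5 sum was empty, and cluster classes gave none, since no cluster took that class. The class fits pair each class sum with the mesenchymal sum of its library through a library block, and with no library block the calls numbered 23, 24, 15 and 15 in epithelial-like, endothelial-like, glial-like and olfactory-like cells. Depth limits the small classes, where 3 UMIs stand for 266.5 CPM in endothelial-like and 428.9 CPM in olfactory-like cells at E13.5.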

Other observations

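The few neural-like cells of E14.5 and E15.5, 75 and 102 in number, were part of no comparison. Robo2 stood there at 2156 and 2378 CPM, beside 839 CPM at E13.5, and Nrp2 at 302 and 603 CPM, beside 128 CPM. Sema3a stood at 447 and 767 CPM, beside 84.1 CPM at E13.5. Epha5 stood at 217 and 191 CPM, beside 818 CPM at E13.5. The cluster with most of the olfactory-like cells held 13 and 17 of them at E14.5 and E15.5 and 0 at E13.5. It took 56 of the 75 and 73 of the 102 neural-like cells, but 30 of the 1688 of E13.5. Olfactory markers stood in neural-like cells at 3.56%, 14.3% and 13.6% of their olfactory-like level at the 3 stages, and their part in these values was not tested. Plxnb3, a plexin known from oligodendrocytes, had 5 and 7 UMIs in glial-like cells at E14.5 and E15.5, which were 67.6 and 66.5 CPM, and a single UMI in all mesenchymal-like cells. It did not pass the low-count filter of the glial comparison.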
